A study of Mus musculus and Homo sapiens with 47 samples.

Results

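The genes described here are 40 human genes of DNA replication and cell division, listed by name for their known roles, with no threshold on their values, out of 25369 genes counted in the SUDHL10 RNA-seq table. Of these, 20 act before or during S phase, when DNA is copied, and 20 act in mitosis, when the copies are parted. All 40 were among the 15278 genes that passed the expression filter and were tested. SUDHL10 is a human B cell lymphoma line. The wider study compared cells before and after interference with Polycomb repressive complex 2 (PRC2), the complex that writes the silencing histone mark H3K27me3. UNC1999 inhibits EZH2 and EZH1, the methyltransferase subunits of PRC2, and MAK683 binds its EED subunit. Both were used at 5 uM, UNC1999 for 1, 3, 5 or 6 days with 2 libraries per day and MAK683 for 1, 3 or 5 days with 1 library per day. The control was a pair of untreated libraries labelled day 5, so a comparison of day 1, 3 or 6 with them differs in culture time as well as in compound, and the contributions cannot be told apart. No vehicle control is named in the labels.

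Proliferating cells switch these genes on in waves. E2F factors, held back by RB proteins until cyclin-dependent kinases release them, drive the genes that license origins, unwind DNA and supply nucleotides. In quiescence and early G1 the DREAM complex represses both sets, and later the MuvB core of that complex, joined by B-MYB and FOXM1, activates the genes that supply the cyclins, kinases and motor proteins of mitosis. Tumour cell lines of B cell origin divide continuously, so both waves are present in an unsorted culture, and the RNA level of a gene is an average over cells in all phases. In such bulk RNA, fewer cells in a phase and less RNA per cell cannot be told apart.

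Each library held 26234896 to 39315662 counts. Levels are given as CPM, counts relative to the library total after TMM scaling, and no level is compared between genes because gene lengths were not used. A gene was called changed at an adjusted p under 0.05 in edgeR's quasi-likelihood test with Benjamini-Hochberg adjustment over all tested genes. Values after ± are standard errors (SE) of log2 fold changes unless SD is written. The labels call the UNC1999 and untreated libraries biological replicates without saying whether the cultures were separate, so p-values then reflect only how far these libraries differ. Of 9 B cell markers, 8 were at 1 CPM or more in every group, summing to between 2798 CPM (MAK683 day 1) and 5497 CPM (MAK683 day 5). CR2, a marker of mature B cells, was at most 0.622 CPM. Summed T and NK cell markers stayed between 0.432 and 13.6 CPM, myeloid markers between 4.6 and 9.63 CPM, and epithelial markers between 0.029 and 5.43 CPM. Stromal markers summed to 5.33 to 47.2 CPM, nearly all of it DCN, at 5.33 to 47.1 CPM, and their part in the results below was not tested.

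The MAK683 day 5 library stood apart from the other treated libraries. In 16 of the 20 S-phase members, this library and both untreated libraries lay below all of the other 10 libraries. The exceptions were CDT1, E2F1, E2F2 and CCNA2. Of the mitotic members, 0 lay below and 7 (TOP2A, CCNB2, BUB1, UBE2C, CENPA, PRC1 and KIF23) lay above. Over all 15278 tested genes, 15.7% were below and 15% above in the same 3 libraries. The library labelled MAK683 day 5 was the lowest of all 13 for 18 of the 20 S-phase members. No share over all tested genes is given for this last count. With 1 library, a property of that culture or library and a property of the compound at day 5 cannot be told apart.

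The S-phase and the mitotic members stood apart in every treated group, with the S-phase members higher in all groups but MAK683 day 5, where they were lower. Relative to the mean of the untreated libraries, the median S-phase member was higher by 0.76 and 0.75 (log2) in the UNC1999 day 1 libraries, by 0.87 and 0.83 at day 3, by 0.58 and 0.59 at day 5 and by 0.54 and 0.47 at day 6. The median mitotic member was at -0.68 in both day 1 libraries, -0.41 in both day 3 libraries, -0.33 and -0.31 at day 5, and -0.29 and -0.31 at day 6. The distance between both medians was therefore widest at day 1 (1.45 and 1.43) and narrowest at day 6 (0.83 and 0.79). Replicates of a group differed in it with a pooled SD of 0.02 over 5 groups. MAK683 gave distances of 1.09 at day 1 and 1.17 at day 3, in 1 library each. At MAK683 day 5 the order was inverted, with a distance of -0.67, made up of an S-phase median of -0.88 and a mitotic median of -0.21. These medians describe the 40 members and carry no test, since members are not replicates. At MAK683 day 5, 50 further replication genes and 57 further mitosis genes, described below, had median log2 fold changes of -0.44 and -0.4. The distance seen there among the 40 members was therefore not seen in these wider lists.

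**Figure D1:**
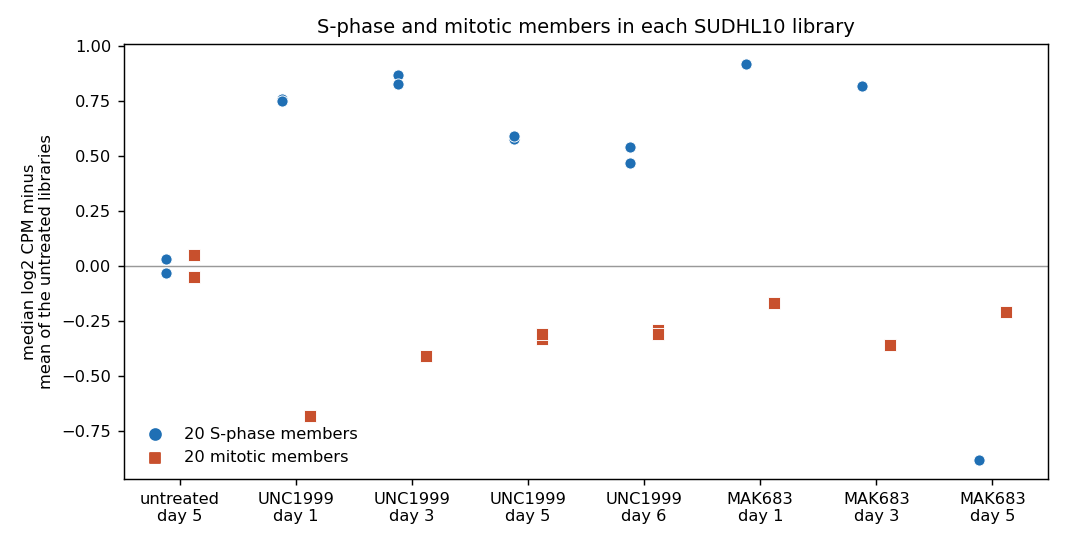
Median log2 CPM of the 20 S-phase members (circles) and the 20 mitotic members (squares) minus the mean of the untreated libraries, with 1 symbol of each kind per library, by group on the horizontal axis. The S-phase median lies above 0 in all UNC1999 libraries and in MAK683 days 1 and 3, and at -0.88 in the MAK683 day 5 library.

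Counts of calls showed the same separation. At UNC1999 day 1, 17 S-phase members rose and 3 fell, while 0 mitotic members rose and 18 fell, against 28.2% of all tested genes called higher and 26.5% called lower. At UNC1999 day 3 the S-phase counts were 17 higher and 0 lower and the mitotic counts 2 higher and 13 lower, against 30.1% and 26.9%. Without the first untreated library or UNC1999 day 3 replicate 1, the S-phase falls at day 3 numbered 1. At UNC1999 day 5 they were 16 higher and 4 lower, and 0 higher and 13 lower, against 31.3% and 27.4%. At UNC1999 day 6 the counts equalled those of day 5, against 30.9% and 27.3% of all genes. For the 4 counts of 0, neither an unadjusted p under 0.05 nor DESeq2 gave a call (0 in each). The median log2 fold change of the S-phase members was 0.75, 0.87, 0.58 and 0.51 at days 1, 3, 5 and 6, and of the mitotic members -0.64, -0.41, -0.33 and -0.31, while the median of all tested genes lay between -0.02 and 0.03. These 4 comparisons share the untreated libraries, so their likeness to each other is no independent evidence.

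**Figure D2:**
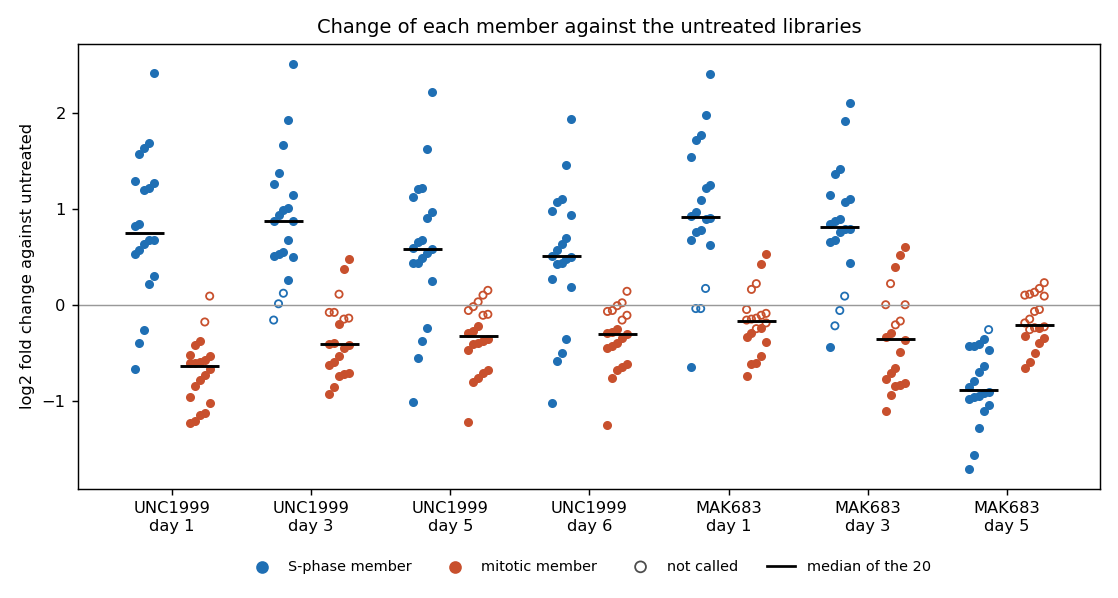
Log2 fold change of each of the 40 members against the untreated libraries (vertical axis), by treated group, with filled symbols for called members, open symbols for members not called and black bars for the median of the 20. S-phase medians run from 0.51 to 0.92 in all groups except MAK683 day 5, where the median is -0.88.

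The MCM2 to MCM7 proteins form the ring that unwinds DNA ahead of the polymerases, and all 6 of their genes rose at each UNC1999 day. MCM2 stood at 328 and 357 CPM untreated, 636 and 590 CPM at UNC1999 day 1, 681 and 700 at day 3, 569 and 531 at day 5, and 505 and 512 at day 6. Under MAK683 it was 587 at day 1, 718 at day 3 and 219 at day 5. Every UNC1999 library lay above both untreated libraries, and only the MAK683 day 5 library lay below them. The change of MCM2 at UNC1999 day 1 was 0.84 ± 0.07 (log2), with an adjusted p of 7.07e-10. MCM5 changed most among the 6, from 120 and 122 CPM to 400 and 382 CPM at UNC1999 day 1 and to 461 and 463 at day 3, which is 1.69 ± 0.07 (3.23-fold) and 1.93 ± 0.07 on the log2 scale. MCM3 and MCM6 changed least at day 1, by 0.68 each.

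Origin licensing needs CDC6 and CDT1, which load the MCM ring. GINS2, described with them here, is a part of the active helicase. CDC6 was at 35.7 and 36.4 CPM untreated, 112 and 113 CPM at UNC1999 day 1, 102 and 83.8 at day 3, 78.1 and 78.9 at day 5, and 71.4 and 71 at day 6. It was at 105 CPM at MAK683 day 1, 77.1 at day 3 and 17.4 at day 5. The rise at UNC1999 day 1 was 1.64 ± 0.09 (3.12-fold, adjusted p = 3.8e-13). GINS2 rose by 1.22 ± 0.09 on the same day.

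CDT1 departed from both CDC6 and GINS2. Its levels were 245 and 332 CPM untreated, 189 and 173 CPM at UNC1999 day 1, 285 and 297 at day 3, 149 and 139 at day 5, and 137 and 145 at day 6. It fell at days 1, 5 and 6, with log2 changes of -0.67 ± 0.1, -1.01 ± 0.1 and -1.03 ± 0.1 and adjusted p of 3.06e-06, 5.22e-09 and 3.88e-09. At day 3 its change was 0.01 ± 0.1, and the treated and untreated ranges overlapped. MAK683 gave 183, 247 and 241 at days 1, 3 and 5, with a call at day 1 only (-0.65 ± 0.12, adjusted p = 0.000104).

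PCNA, the sliding clamp of the replicative polymerases, stood at 109 and 120 CPM untreated, 252 and 274 CPM at UNC1999 day 1, 241 and 200 at day 3, 208 and 242 at day 5, and 228 and 210 at day 6. MAK683 gave 274, 209 and 58 at days 1, 3 and 5. PCNA rose by 1.2 ± 0.09 at UNC1999 day 1 (2.29-fold, adjusted p = 1.07e-10). UHRF1, which reads hemimethylated DNA behind the fork and recruits DNMT1, had the largest rise of the 40 members at each UNC1999 day. Its levels were 36.9 and 37.6 CPM untreated, 191 and 207 at day 1, 223 and 202 at day 3, 159 and 189 at day 5, and 152 and 133 at day 6. The changes were 2.42 ± 0.1 (5.34-fold), 2.51 ± 0.1 (5.71-fold), 2.22 ± 0.1 and 1.94 ± 0.1, the largest of their adjusted p being 2.27e-14. MAK683 day 5 had 19.9 CPM, below both untreated libraries.

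Under UNC1999 the rises of the nucleotide supply genes, with medians of 0.55, 0.52, 0.44 and 0.34 at days 1, 3, 5 and 6, were below those of every MCM gene, PCNA and UHRF1 at the same day, as a description with no test between genes. Under MAK683 this did not hold, with medians of 0.94 for nucleotide supply and 0.85 for the MCM genes at day 1, and of -0.88 and -0.67 at day 5. RRM1 and RRM2 encode ribonucleotide reductase, TYMS thymidylate synthase and TK1 thymidine kinase. RRM2 was at 244 and 278 CPM untreated, 387 and 386 CPM at UNC1999 day 1, 405 and 360 at day 3, 358 and 349 at day 5, and 321 and 310 at day 6. MAK683 gave 555, 484 and 150 CPM. TYMS was at 29.1 and 37.3 CPM untreated, between 42.7 and 48.2 CPM in the 8 UNC1999 libraries, and at 65, 52 and 15.4 CPM under MAK683. Both genes lay higher in all 8 UNC1999 libraries than untreated. The rises at UNC1999 day 1 were 0.57 ± 0.08 for RRM2 (adjusted p = 1.28e-06) and 0.53 ± 0.11 for TYMS (adjusted p = 0.000217), beside 0.63 ± 0.07 for RRM1 and 0.3 ± 0.08 for TK1. At day 6 they were 0.27 ± 0.08 and 0.42 ± 0.11, and both calls at day 6 were lost without the first untreated library (adjusted p = 0.0861 and 0.092). The call of RRM2 was also lost without UNC1999 day 6 replicate 1 (adjusted p = 0.0536). TYMS at day 5, 0.44 ± 0.11, was likewise lost without the first untreated library (adjusted p = 0.072).

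The cyclin E genes rose, and cyclin A2 did not. Cyclin E, from CCNE1 or CCNE2, activates CDK2 at the entry into S phase, and cyclin A2 serves CDK2 and CDK1 from S phase to mitosis. CCNE1 stood at 13.6 and 13.6 CPM untreated, 32.6 and 33 CPM at UNC1999 day 1, 28.5 and 25.8 at day 3, 22 and 29.2 at day 5, and 23.6 and 20.7 at day 6. MAK683 gave 44.9, 30 and 4.6 CPM. CCNE2 stood at 12.3 and 11.6 CPM untreated, between 25.2 and 40.6 CPM in the 8 UNC1999 libraries, and at 47.1, 30.7 and 4.88 CPM under MAK683. For both genes the UNC1999 libraries lay above and the MAK683 day 5 library below the untreated ones. The rises at UNC1999 day 1 were 1.27 ± 0.13 (2.4-fold, adjusted p = 1.78e-08) and 1.57 ± 0.12 (2.97-fold, adjusted p = 6.14e-11).

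CCNA2 moved little, from 207 and 240 CPM untreated to 190 and 183 CPM at UNC1999 day 1, 210 and 189 at day 3, 195 and 183 at day 5, and 176 and 173 at day 6. It was called lower at days 1, 5 and 6 (-0.26 ± 0.08, -0.24 ± 0.08 and -0.36 ± 0.08). Without the second untreated library the calls at days 1 and 5 were lost (adjusted p = 0.168 and 0.223), and that at day 5 also without UNC1999 day 5 replicate 2 (adjusted p = 0.131). MAK683 gave 218, 238 and 166 CPM, with a call at day 5 only (-0.43 ± 0.1, adjusted p = 0.00251).

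E2F1 and E2F2 encode activating E2F factors, and neither rose at every UNC1999 day, unlike most of the members described above. E2F1 was at 121 and 123 CPM untreated, 135 and 148 CPM at UNC1999 day 1, 126 and 140 at day 3, 80.5 and 85.1 at day 5, and 82.2 and 80.1 at day 6. MAK683 gave 138, 89.8 and 94.8 CPM. It fell at UNC1999 days 5 and 6 (-0.56 ± 0.08 and -0.59 ± 0.08, adjusted p = 2.38e-06 and 1.29e-06). The call higher at day 1, 0.22 ± 0.08 with an adjusted p of 0.0265, did not last under either other scaling, DESeq2 or no low-count filter (adjusted p = 0.0754 to 0.278). It was also lost on leaving out either untreated library (adjusted p = 0.26 without the first and 0.0568 without the second), UNC1999 day 1 replicate 2 (0.671) or MAK683 day 1 (0.205). E2F2 was at 143 and 159 CPM untreated and fell at day 1 to 114 and 115 CPM (-0.4 ± 0.09, adjusted p = 0.000602). At UNC1999 day 3 it had 164 and 196 CPM, at day 5 121 and 110 CPM, and at day 6 101 and 112 CPM. MAK683 gave 146, 145 and 46.2 CPM, the last the lowest of all libraries. The call higher at day 3, 0.26 ± 0.09, was lost without the first untreated library (adjusted p = 0.19) or UNC1999 day 3 replicate 2 (adjusted p = 0.282).

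**Figure D3:**
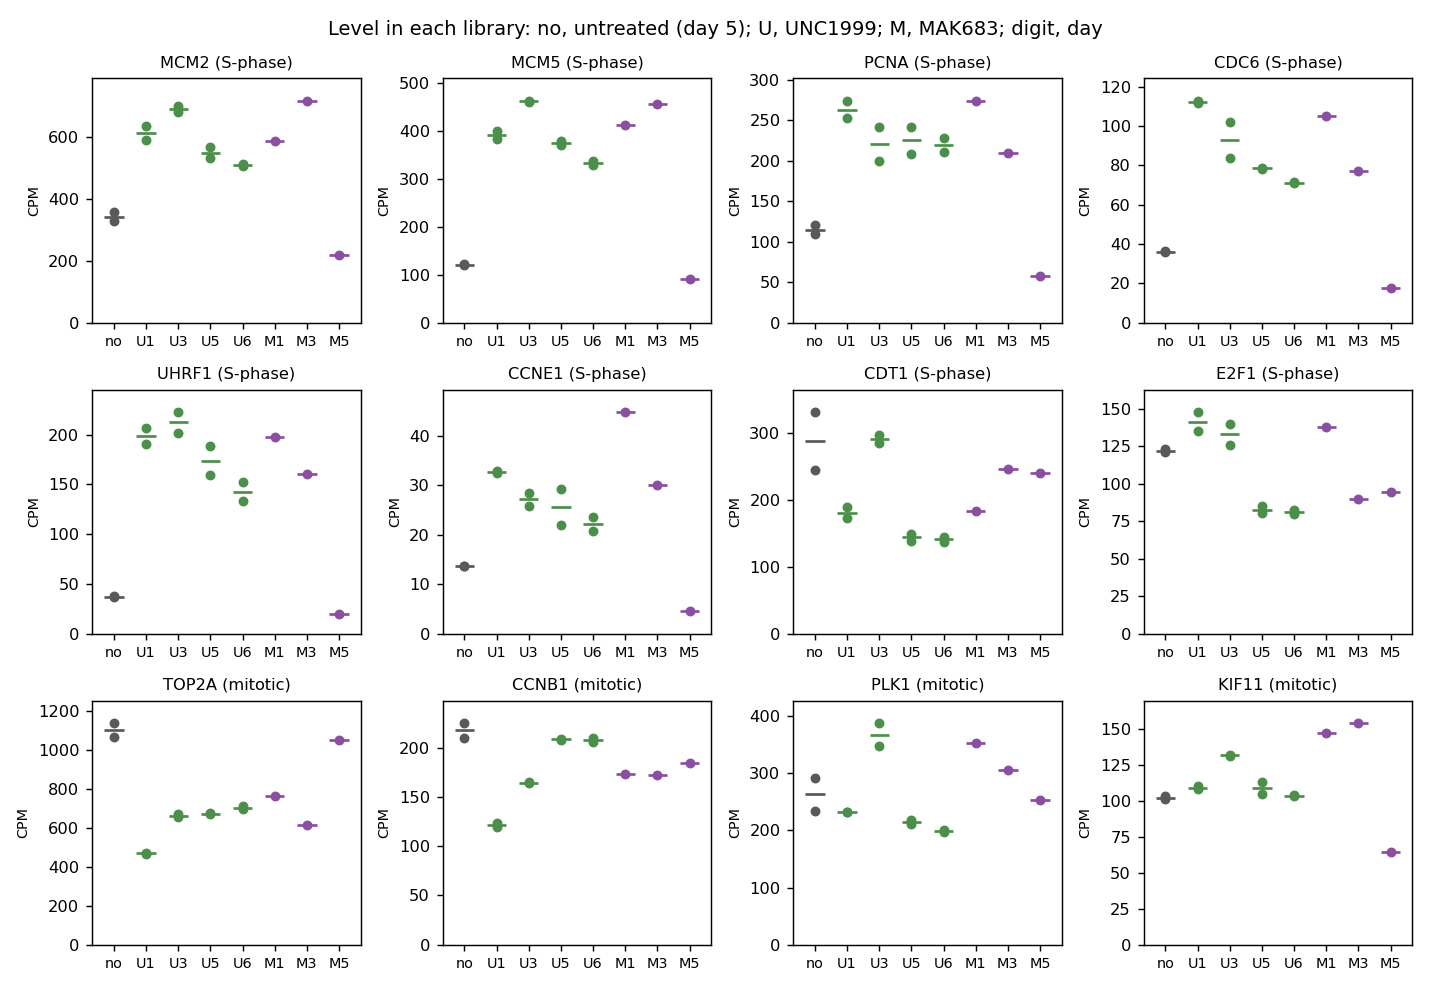
CPM of 12 members in each library (vertical axes from 0, points are libraries and bars group means), with untreated libraries first, then UNC1999 days 1, 3, 5 and 6 and MAK683 days 1, 3 and 5 on the horizontal axes. MCM2, MCM5, PCNA, CDC6, UHRF1 and CCNE1 are lowest in the MAK683 day 5 library, while TOP2A at 1048 CPM lies there close to the untreated libraries at 1066 and 1137 CPM.

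Among the mitotic members, CDK1, the kinase of mitotic entry, and its partners cyclin B1 and B2 fell at UNC1999 day 1. CCNB1 stood at 210 and 225 CPM untreated, 119 and 123 CPM at UNC1999 day 1, 164 and 165 at day 3, 209 and 208 at day 5, and 210 and 206 at day 6. By days 5 and 6 the treated libraries lay just below the lower untreated one. The changes of CCNB1 were -0.85 ± 0.07 at day 1 (1.8-fold lower, adjusted p = 6.45e-10), -0.41 ± 0.07 at day 3, -0.06 ± 0.07 at day 5 and -0.07 ± 0.07 at day 6, the last pair not called. CDK1 was at 213 and 247 CPM untreated, 147 and 142 at day 1, 172 and 165 at day 3, 190 and 193 at day 5, and 207 and 206 at day 6. It fell by 0.67 ± 0.08 at day 1 and 0.45 ± 0.08 at day 3 (log2), and its call at day 5 was lost without the second untreated library (adjusted p = 0.119). CCNB2 kept a larger difference, with changes of -1.13 ± 0.08 at day 1 and -0.68 ± 0.08 at day 6.

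The genes of chromosome structure behaved unequally. TOP2A, the topoisomerase that untangles sister chromatids, stood at 1066 and 1137 CPM untreated, 466 and 472 CPM at UNC1999 day 1, 654 and 668 at day 3, 674 and 669 at day 5, and 695 and 710 at day 6. All 8 UNC1999 libraries lay below both untreated libraries, and the fall at day 1 was the largest of the 40 members (-1.23 ± 0.07, 2.35-fold lower, adjusted p = 3.03e-13). MKI67, which coats mitotic chromosomes and is a widely used marker of proliferation, stood at 779 and 796 CPM untreated, 612 and 565 at day 1, 668 and 825 at day 3, 849 and 760 at day 5, and 749 and 811 at day 6. It fell at day 1 (-0.42 ± 0.09, adjusted p = 0.000221), and at days 3, 5 and 6 its changes were -0.08, 0.03 and -0.01, none called. CENPA, the centromeric histone, fell at every UNC1999 day (-1.03 to -0.62), and CENPF, a kinetochore protein, at day 1 only (-0.53 ± 0.08).

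Of the mitotic kinases, AURKB, the enzyme of the chromosomal passenger complex, stood at 142 and 150 CPM untreated, 85.8 and 105 CPM at UNC1999 day 1, 91.3 and 86 at day 3, 106 and 118 at day 5, and 121 and 115 at day 6. It fell at days 1, 3 and 5 (-0.61, -0.72 and -0.38, each ± 0.09), and the call at day 6, -0.31 ± 0.09, was lost without UNC1999 day 6 replicate 2 (adjusted p = 0.0591). AURKA, the spindle pole kinase, fell by 1.15 ± 0.09 at day 1 and TPX2, its activator, by 0.6 ± 0.08. BIRC5 encodes survivin, a partner of AURKB, and stood at 195 and 219 CPM untreated, 141 and 130 at day 1, 179 and 212 at day 3, 202 and 184 at day 5, and 199 and 196 at day 6. It fell at day 1 only (-0.61 ± 0.09, adjusted p = 2.07e-06).

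PLK1, a kinase of entry, spindle assembly and exit, followed another course. Its levels were 234 and 292 CPM untreated, 233 and 232 CPM at UNC1999 day 1, 347 and 388 at day 3, 219 and 211 at day 5, and 198 and 200 at day 6. It was not called at day 1 (-0.18 ± 0.09), rose at day 3 (0.48 ± 0.09, adjusted p = 4.5e-05) and fell at day 6 (-0.4 ± 0.09, adjusted p = 0.000367). The call lower at day 5 was lost without the second untreated library (adjusted p = 0.227) or UNC1999 day 5 replicate 2 (adjusted p = 0.0509).

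CDC20 and UBE2C belong to the anaphase-promoting complex pathway, and BUB1 and BUB1B to the spindle checkpoint that restrains it. All 4 fell at UNC1999 day 1, with log2 changes of -0.96 to -0.38. CDC20 stood at 160 and 180 CPM untreated, 120 and 116 at day 1, 149 and 147 at day 3, 174 and 162 at day 5, and 159 and 156 at day 6. Its fall at day 1 was -0.52 ± 0.08 (adjusted p = 3.77e-06), and at days 5 and 6 its changes were -0.02 and -0.11, not called. The call at day 3, -0.2 ± 0.08, was lost without the second untreated library (adjusted p = 0.286) or either UNC1999 day 3 replicate (adjusted p = 0.0522 and 0.0791).

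The spindle and midzone genes split. PRC1, which bundles midzone microtubules and is unrelated to the Polycomb complex of that name, fell at all 4 UNC1999 days (-1.21, -0.93, -1.22 and -1.26, each ± 0.08). KIF23, a midzone motor, and NUSAP1, a spindle microtubule protein, also fell at each day. KIF11, the motor that separates spindle poles, did not. It stood at 103 and 101 CPM untreated, 110 and 108 CPM at UNC1999 day 1, 131 and 132 at day 3, 113 and 105 at day 5, and 104 and 103 at day 6, with a call only at day 3 (0.37 ± 0.08, adjusted p = 0.000206).

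At MAK683 days 1 and 3 most S-phase members also rose, and part of the mitotic ones fell. At day 1, 16 S-phase members rose and 1 fell, and 2 mitotic members rose and 8 fell, against 26.2% of all tested genes higher and 22.4% lower. At day 3 the S-phase counts were again 16 and 1, and 3 mitotic members rose and 12 fell, against 26.2% and 22.2%. The S-phase medians were 0.92 and 0.82 and the mitotic medians -0.17 and -0.36. The largest rises at day 1 were those of UHRF1 (2.41 ± 0.11), CCNE2 (1.98 ± 0.14, 3.94-fold) and MCM5 (1.77 ± 0.08). Without the second untreated library the mitotic falls at day 1 numbered 5, and without the first the mitotic rises numbered 1. Without the first untreated library the S-phase falls at day 3 numbered 2. Each of these groups is 1 library, assumed to vary like the other groups, and the comparisons share the untreated libraries with those of UNC1999.

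Among the mitotic members at MAK683 day 1, TOP2A had 761 CPM (-0.53 ± 0.09), CCNB1 173 CPM (-0.34 ± 0.09) and AURKB 130 CPM (-0.16 ± 0.11, not called). KIF11 rose to 147 at day 1 and 154 at day 3 (0.53 ± 0.09 and 0.6 ± 0.09). MKI67 had 879 at day 1, not called, and 1133 at day 3, above every other library (0.52 ± 0.1, adjusted p = 0.000168). The call of PLK1 at day 1, at 352 CPM (0.42 ± 0.11), was lost without the first untreated library (adjusted p = 0.131), and that of CDK1, at 188 CPM (-0.29 ± 0.1), without the second (adjusted p = 0.134).

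In the MAK683 day 5 library, 0 S-phase members were higher than untreated and 19 were lower, and 0 mitotic members were higher and 7 lower, against 15.5% and 14.1% of all tested genes. At an unadjusted p under 0.05 the counts of 0 became 0 and 1, and DESeq2 gave 0 and 0. The S-phase median was -0.88 and the mitotic median -0.21, beside 0 over all tested genes. E2F2, at 46.2 CPM, fell most (-1.71 ± 0.12, 3.26-fold lower, adjusted p = 1.43e-10), followed by CCNE1 (-1.57 ± 0.2), CCNE2 (-1.29 ± 0.18) and TYMS (-1.11 ± 0.15). CDT1, at 241 CPM, was the S-phase member not called (-0.26 ± 0.12). Of the mitotic members KIF11 fell most, to 64.3 CPM (-0.66 ± 0.1), with BUB1B (-0.6 ± 0.1) and BIRC5 (-0.5 ± 0.11). The mitotic count rose to 12 without the first untreated library. CCNB1, at 184 CPM, lost its call without the second untreated library (adjusted p = 0.163) and without any of 5 UNC1999 libraries (adjusted p = 0.0597 to 0.0753).

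The compounds were set against each other directly at days 1, 3 and 5, which uses no untreated mean but rests on 1 MAK683 library per day. The comparisons cover 3 matched days, and every p-value is adjusted over all 15278 genes within a day. UNC1999 and MAK683 act on different subunits, and neither label names an inactive analogue.

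At day 1 the compounds differed in the mitotic members. UNC1999 was lower than MAK683 in 19 of the 20 and higher in 0 (0 at an unadjusted p under 0.05 and 0 by DESeq2), against 3.65% of all tested genes lower and 4.4% higher. The mitotic median was -0.52. CDC20, at 120 and 116 CPM against 198 CPM, differed most (-0.75 ± 0.09, 1.68-fold lower, adjusted p = 4.94e-06). UBE2C (-0.71 ± 0.11) and TOP2A, at 466 and 472 CPM against 761 CPM (-0.7 ± 0.08), came next. MKI67, CCNB1 and PLK1 differed by -0.58 ± 0.1, -0.51 ± 0.09 and -0.6 ± 0.1. BUB1B was the mitotic member not called (-0.29 ± 0.1, 95% interval -0.47 to -0.1). Without UNC1999 day 1 replicate 2 the calls of CDK1 and BIRC5 were lost (adjusted p = 0.134 and 0.0943), and without replicate 1 that of AURKB (adjusted p = 0.174). The lowest number of mitotic members lower, over all libraries left out, was 15.

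The S-phase members differed less at day 1, with 1 higher and 4 lower and a median of -0.08. None of the 6 MCM genes was called, at changes of -0.1 to 0.07. For MCM2 the 95% interval of the difference ran from -0.11 to 0.24, for PCNA from -0.28 to 0.16, for CDC6 from -0.11 to 0.32 and for UHRF1 from -0.21 to 0.22. The 4 lower members were RRM2 (387 and 386 CPM against 555 CPM, -0.52 ± 0.09, adjusted p = 0.000567), TYMS, TK1 and E2F2. TYMS lost its call without either UNC1999 day 1 replicate (adjusted p = 0.114 and 0.167) and TK1 without replicate 2 (adjusted p = 0.174). E2F2 lost its call without either of those replicates or any of 5 other libraries, and GINS2, the member higher (0.33 ± 0.1), without any of 7 libraries. The counts were 0 higher and 1 lower without UNC1999 day 1 replicate 2, and 0 and 2 without replicate 1. CCNE1 and CCNE2 were at -0.45 ± 0.15 and -0.41 ± 0.14, not called.

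At day 3 few members differed, with 4 S-phase members higher and 2 lower and 1 mitotic member higher and 2 lower, against 10.8% of all tested genes higher and 11.8% lower. The medians were 0.07 and -0.02. E2F1, at 126 and 140 CPM against 89.8 CPM, had the smallest adjusted p among the S-phase members (0.56 ± 0.1, adjusted p = 0.000295). UHRF1 was also higher (0.41 ± 0.11, adjusted p = 0.0094). MKI67 was lower, at 668 and 825 CPM against 1133 CPM (-0.6 ± 0.1, adjusted p = 0.000178). The calls of RRM2, E2F2 and AURKA were lost without UNC1999 day 3 replicate 2, when the counts were 4 and 0 for the S-phase and 0 and 3 for the mitotic members. That of GINS2 was lost without replicate 1 (adjusted p = 0.189). Without the first untreated library 4 mitotic members were higher and 1 lower. CENPF and RRM1 lost their calls under both other scalings. The calls of CENPF, RRM1 and E2F2 were each also lost without either UNC1999 day 5 replicate or either UNC1999 day 6 replicate. Of all tested genes, 1648 were higher and 1807 lower, and with plain library-size scaling 1875 and 1310. Under that scaling too, 4 mitotic members were higher and 1 lower.

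At day 5 the compounds differed in 17 S-phase members higher and 1 lower under UNC1999, and in 3 mitotic members higher and 8 lower, against 26.4% of all tested genes higher and 25.7% lower. The S-phase median was 1.48 and the mitotic median -0.13. UHRF1, at 159 and 189 CPM against 19.9 CPM, differed most (3.13 ± 0.14, 8.75-fold, adjusted p = 8.31e-15). CCNE2 (2.5 ± 0.18, 5.65-fold), CCNE1 (2.48 ± 0.2, 5.56-fold), CDC6 (2.17 ± 0.13, 4.51-fold) and MCM4 (2.08 ± 0.1, 4.22-fold) followed. CDT1, at 149 and 139 CPM against 241 CPM, was lower (-0.75 ± 0.12, adjusted p = 9.77e-06). E2F1 and CCNA2 were not called, with intervals of -0.39 to 0 and -0.01 to 0.39. Most of these members lay above untreated under UNC1999 and below untreated under MAK683, and the comparison rests on the 1 library that stands apart.

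The mitotic members went both ways at day 5. CCNB2 (94.6 CPM mean against 186 CPM, -0.98 ± 0.09), PRC1 (-0.87 ± 0.1), CENPA (-0.78 ± 0.14) and TOP2A (-0.64 ± 0.08) were lower under UNC1999. KIF11, at 113 and 105 CPM against 64.3 CPM, was higher (0.76 ± 0.1, adjusted p = 4.36e-07), as were BUB1B (0.48 ± 0.1) and BIRC5 (0.4 ± 0.11). MKI67, CDK1, CCNB1, CDC20, PLK1 and AURKB were not called, at changes of -0.24 to 0.22. The members called higher numbered 5 without the first untreated library, and also 5 with DESeq2 or its scaling.

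Averaged over days 1, 3 and 5, UNC1999 against MAK683 gave 15 S-phase members higher and 1 lower and 0 mitotic members higher and 15 lower, against 19.7% and 18.5% of all tested genes (0 at an unadjusted p under 0.05 and 0 by DESeq2 for the count of 0). The 1 lower, CDT1 (-0.18 ± 0.07), was called under neither other scaling, nor without any of UNC1999 day 1 replicate 2, day 3 replicate 1, day 5 replicate 2 and both day 6 replicates (adjusted p = 0.0606 to 0.224). The S-phase side of this average rests on day 5. Its mitotic side was largest at day 1, with medians of -0.52, -0.02 and -0.13 at days 1, 3 and 5, and 1 MAK683 library each. Over days 1 and 3 only, chosen after the data were seen, 2 S-phase members were higher and 4 lower, with a median of -0.02. Of the mitotic members, 12 were lower and 0 higher, with a median of -0.26. Under this setting 2929 of the 15278 tested genes were called in either direction. Of the 31 members called in the average, 11 were still called over days 1 and 3, and 9 changed sign.

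**Figure D4:**
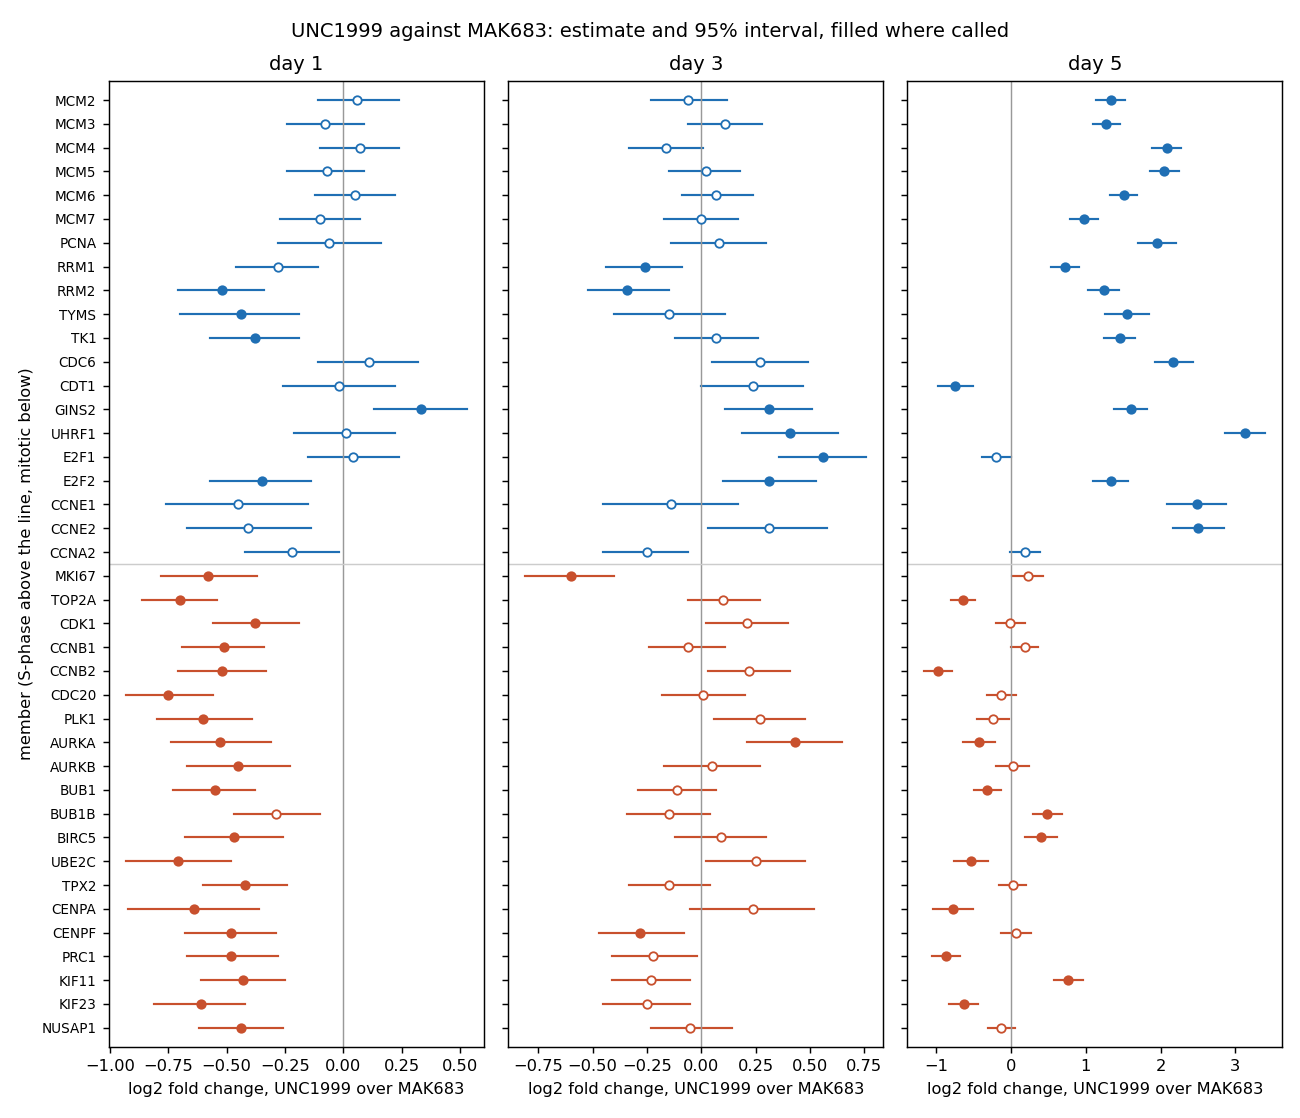
Log2 fold change of UNC1999 over MAK683 for each member with its 95% interval (horizontal axes, scaled separately per panel) at days 1, 3 and 5, S-phase members above the dividing line and mitotic members below, filled where called. At day 1 all mitotic estimates lie between -0.75 and -0.29, and at day 5 the S-phase estimates reach 3.13.

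With time under UNC1999 most mitotic members were higher at days 3, 5 and 6 than at day 1, and most S-phase members were lower at day 6. Some moved further from untreated, such as E2F1 and CDT1 at days 5 and 6, and PRC1 stood at -1.21 against untreated at day 1 and -1.26 at day 6. From day 1 to day 3, 16 mitotic members rose and 0 fell (0 at an unadjusted p under 0.05 and 0 by DESeq2), and 6 S-phase members rose and 2 fell, against 17.2% of all tested genes higher and 18.2% lower. PLK1 (0.66 ± 0.09), AURKA (0.73 ± 0.09) and CENPF (0.64 ± 0.08) led the mitotic members, and CDT1 (0.68 ± 0.1) and E2F2 (0.66 ± 0.09) the S-phase members. The 2 S-phase falls, PCNA and CDC6, were called under neither other scaling. Both were also lost without the first untreated library, either UNC1999 day 1 replicate, day 3 replicate 2 or MAK683 day 1 (adjusted p = 0.0503 to 0.593). The S-phase rises numbered 3 on leaving out UNC1999 day 1 replicate 1, either day 3 replicate or either day 6 replicate. Without a low-count filter, 3180 genes were higher and 1810 lower, against 2626 and 2775.

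From day 1 to day 5, 17 mitotic members rose and 0 fell, and 0 S-phase members rose and 8 fell, against 19.6% of all tested genes higher and 22% lower. At an unadjusted p under 0.05 the counts of 0 were 0 mitotic and 1 S-phase, and by DESeq2 also 0 and 1. CCNB1 (0.79 ± 0.07), CENPF (0.68 ± 0.08) and TOP2A (0.52 ± 0.07) rose with the smallest adjusted p, and E2F1 (-0.78 ± 0.08), GINS2 (-0.58 ± 0.08) and CDC6 (-0.52 ± 0.09) fell. The S-phase count of 0 became 1 without either untreated library, either day 3 replicate or MAK683 day 1. The S-phase falls numbered 4 without UNC1999 day 1 replicate 2 and 5 without day 5 replicate 1. Without a low-count filter, 3339 genes were higher and 2415 lower, against 2994 and 3355.

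From day 1 to day 6, 16 mitotic members rose and 1 fell, and 0 S-phase members rose (0 at an unadjusted p under 0.05, 1 by DESeq2) and 16 fell, against 22.1% and 25.5% of all tested genes. CCNB1 rose most (0.78 ± 0.07, adjusted p = 5.56e-09), with CENPF (0.67 ± 0.08), TOP2A (0.58 ± 0.07) and CDK1 (0.51 ± 0.08). E2F1 (-0.81 ± 0.08), CDC6 (-0.66 ± 0.09) and GINS2 (-0.59 ± 0.08) fell most among the S-phase members. The falls of the MCM genes were small, -0.32 to -0.17. The S-phase falls numbered 8 without UNC1999 day 1 replicate 2 and 10 without day 1 replicate 1 or day 6 replicate 2. The count of 0 became 1 without the first untreated library or MAK683 day 1. The mitotic fall, of PLK1, was called under neither other scaling and was lost without any of 8 libraries, all except the second untreated, the day 3 and the MAK683 day 3 and 5 libraries.

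Between UNC1999 days 5 and 6, edgeR called 0 of the 40 members, against 0.465% and 0.321% of all tested genes higher and lower. At an unadjusted p under 0.05, 4 S-phase and 1 mitotic members were lower and 0 higher, and DESeq2 called 0. The S-phase changes ranged from -0.28 to -0.01 and the mitotic changes from -0.17 to 0.13.

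Under MAK683, from day 1 to day 5, 1 S-phase member rose and 19 fell, and 6 mitotic members rose and 5 fell, against 26% of all tested genes higher and 26.4% lower. The S-phase median was -1.75 and the mitotic median 0.06. UHRF1 went from 198 to 19.9 CPM (-3.32 ± 0.15, 9.97-fold lower), CCNE1 from 44.9 to 4.6 CPM (-3.29 ± 0.22) and CCNE2 from 47.1 to 4.88 CPM (-3.27 ± 0.19). CDT1 was the member that rose (0.39 ± 0.14, adjusted p = 0.0217). Of the mitotic members CCNB2 rose from 108 to 186 CPM (0.78 ± 0.11) and KIF11 fell from 147 to 64.3 CPM (-1.19 ± 0.11). The mitotic falls numbered 3 without UNC1999 day 1 replicate 2, which here enters only the spread and the scaling.

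The course from day 1 to day 5 therefore differed between the UNC1999 and the MAK683 libraries in most members. With 1 MAK683 library at each day, a property of the compound and a property of the library cannot be told apart. The test of the difference itself, the change under UNC1999 minus the change under MAK683, called 18 S-phase members higher and 1 lower, and 10 mitotic members higher and 2 lower, against 21.6% and 20.2% of all tested genes. The S-phase median was 1.72 and the mitotic median 0.36. UHRF1 (3.12 ± 0.17), CCNE1 (2.93 ± 0.25) and CCNE2 (2.91 ± 0.22) had the largest values, and CDT1 the lowest (-0.73 ± 0.17). KIF11 had the largest value of the mitotic members (1.2 ± 0.13). The mitotic lower calls, CCNB2 and PRC1, became 1 without UNC1999 day 1 replicate 2 or either day 5 replicate, since that of PRC1 was lost.

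Other genes of the same pathways, from lists that do not include the 40, are given as counts. Of 50 further replication genes, 43 rose and 2 fell at UNC1999 day 1, with a median of 0.67, against 28.2% of all tested genes higher and 26.5% lower. At UNC1999 day 6, 37 rose and 4 fell, against 30.9% and 27.3%. Claspin (CLSPN), a fork protection protein, had the smallest adjusted p at day 1 and went from a mean of 37.5 to 129 CPM (1.78 ± 0.1), and the flap endonuclease FEN1 from 83 to 224 CPM (1.43 ± 0.08). RFC1, a subunit of the clamp loader, fell at both days (-0.41 ± 0.08 and -0.65 ± 0.08). At MAK683 day 1, 46 of the 50 rose, against 26.2% of all tested genes, and at MAK683 day 5, 31 fell, against 14.1%. At day 5, 42 were higher and 2 lower under UNC1999 than under MAK683, against 26.4% and 25.7%.

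Of 57 further mitosis genes, 8 rose and 36 fell at UNC1999 day 1, with a median of -0.35, against 28.2% of all tested genes higher and 26.5% lower. The kinase NEK2 fell from 120 to 32.3 CPM (-1.89 ± 0.1, adjusted p = 4.22e-14) and the kinetochore motor CENPE from 189 to 70.7 CPM (-1.42 ± 0.09). ZWINT, a kinetochore protein, and SMC2, a condensin subunit, were among the 8 that rose (1.2 ± 0.09 and 0.78 ± 0.08). UNC1999 was lower than MAK683 at day 1 in 34 of these 57, against 3.65% of all tested genes. Between compounds at day 5, 23 were higher and 19 lower under UNC1999, against 26.4% and 25.7%. MAK683 day 1 had 16 higher and 18 lower than untreated, against 26.2% and 22.4%. At MAK683 day 5, 1 rose and 35 fell against untreated, where 15.5% of all tested genes were higher and 14.1% lower.

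Of 26 genes for G1 cyclins, RB family proteins and cell cycle transcription factors, 12 rose and 4 fell at UNC1999 day 1, against 28.2% of all tested genes higher and 26.5% lower. At UNC1999 day 6, 12 rose and 9 fell, against 30.9% and 27.3%. At MAK683 day 1, 14 rose and 5 fell, against 26.2% and 22.4%, and at MAK683 day 5, 4 rose and 14 fell, against 15.5% and 14.1%. E2F4, a repressive E2F factor, was at 69.3 and 73.6 CPM untreated, 236 and 263 CPM at UNC1999 day 1, 126 and 147 at day 5 and 52.4 CPM at MAK683 day 5 (day 1 change 1.81 ± 0.09). CDK4 and the phosphatase gene CDC25A rose with it (1.2 ± 0.09 and 1.05 ± 0.08). WEE1, a kinase that restrains CDK1, ran the other way, at 324 and 344 CPM untreated, 177 and 178 CPM at UNC1999 day 1, 166 CPM at MAK683 day 1 and 500 CPM at MAK683 day 5. At UNC1999 day 6, cyclin D2 (CCND2) was at 17.4 and 16.6 CPM against 1.55 and 1.44 CPM untreated (3.5 ± 0.29), and TFDP2, a dimer partner of E2F, at 43.6 and 52.5 CPM against 1.74 and 4.07 CPM (4.05 ± 0.22).

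Of 7 genes for inhibitors of cyclin-dependent kinases, 6 were tested, and 4 fell at UNC1999 day 1, against 26.5% of all tested genes. At UNC1999 day 6, 2 rose and 4 fell, against 30.9% and 27.3%. CDKN2C went from 61.4 and 65.3 CPM untreated to 89.2 and 96.4 CPM at UNC1999 day 6. CDKN1A was at 4.41 and 3.45 CPM untreated, 0.956 and 1.58 at UNC1999 day 1, and 8.48 and 8.45 at day 6. CDKN2D was at 25.8 and 25.5 CPM untreated, 6.63 and 7.66 at UNC1999 day 1, and 10.8 at MAK683 day 5. Of the 6 tested, 4 were also lower at UNC1999 day 5 and at MAK683 days 1 and 3, and 1 was higher in each. Of all tested genes, 27.4%, 22.4% and 22.2% were lower there, and 31.3%, 26.2% and 26.2% higher. The inhibitors therefore did not share 1 course, and CDKN1B does not stand for all of them. CDKN1B, which encodes the CDK2 inhibitor p27, was at 169 and 187 CPM untreated, 51.6 and 48.4 CPM at UNC1999 day 1, 73.9 and 84.6 at day 3, 51.1 and 50.8 at day 5, and 51.9 and 53.1 at day 6. MAK683 gave 55.7 at day 1, 60 at day 3 and 250 at day 5. Here the untreated and MAK683 day 5 libraries lay above the other 10, as they did in 15% of all tested genes, where most S-phase members had them below. CDKN1B fell by 1.83 ± 0.09 at UNC1999 day 1 (adjusted p = 2.25e-14). UNC1999 was lower than MAK683 at day 5 by 2.29 ± 0.1 (adjusted p = 8.7e-15).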

How the data were processed

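RNA of 13 SUDHL10 libraries was analysed. The table holds whole-number counts per gene as deposited by the authors, not normalized. Per the labels' protocols, RNA was prepared with TRIzol and libraries with a TruSeq V2 kit for single-end reads. Per the submitters' processing notes, STAR 2.5.3a and DESeq2 were among the tools used. Nothing in the sources used here names the gene counter, annotation or human genome build. The untreated columns share 1 header, so these libraries carry no replicate numbers and are called first and second by column. Replicates differed by more than counting noise (chi-square per degree of freedom of at least 5.78 over genes with a summed count of 20 or more). They were therefore not treated as the same library counted again. This check cannot tell separate cultures from separate preparations of the same culture.

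One model with a mean for each of 8 groups was fitted in edgeR 4.0.16 under R 4.3.3 (filterByExpr, TMM scaling, quasi-likelihood F test, Benjamini-Hochberg adjustment over 15278 genes, threshold 0.05). There were 5 residual and 18.6 prior degrees of freedom, and the common biological coefficient of variation was 0.0927. MAK683 groups of 1 library borrow the spread of the others. Each SE was taken as |log2 fold change| over the root of its F statistic, and 95% intervals are 1.96 SE wide on each side. DESeq2 1.42.0, both other scalings, no filter and leaving out each library were tried. The fit was tested on simulated data for UNC1999 day 5 against untreated only, so that test covers no comparison with MAK683. Members and lists were chosen with earlier results of these data known. Landmark genes of each role and, per comparison, the 3 members of either group with the smallest adjusted p in each direction were named, and some were named again in other comparisons after their values were seen. Chromatin, mouse and single-cell samples were not analysed here, and promoter and protein sequences of the members were not used here.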

Additional observations from a re-analysis of the deposited data

Results flagged for a closer look

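The change from day 1 to day 5 differed between UNC1999 and MAK683 by a test of the difference itself, and each value here rests on 1 MAK683 library per day. Of the S-phase members, 18 were called higher and 1 lower, and of the mitotic members 10 higher and 2 lower. Of all tested genes, 21.6% were called higher and 20.2% lower. The log2 differences (UNC1999 minus MAK683) of the S-phase members were 1.27 for MCM2, 2.01 for PCNA, 1.76 for RRM2, 2 for TYMS, 2.07 for CDC6, 1.68 for E2F2, 2.93 for CCNE1, 2.91 for CCNE2 and 0.41 for CCNA2. Those of the mitotic members were 0.8 for MKI67, 0.37 for CDK1, 0.69 for CCNB1, 0.47 for AURKB, 0.62 for CDC20 and 0.87 for BIRC5. The calls of CCNA2, CDK1 and AURKB were lost on leaving out at least 1 of the UNC1999 day 1 or day 5 libraries.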

How the results depend on the processing

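Of the values of members named in a comparison, recomputed under every other setting, 4811 kept their direction and side of the threshold, 211 fell short of it and 7 changed sign, all over days 1 and 3 only. Counts and medians moved by less than the limits in 522 cases and by more in 42. Over days 1 and 3 only, the average of UNC1999 against MAK683 called 18 members in place of 31, with TYMS at -0.3 (adjusted p = 0.024), CCNE1 at -0.3, E2F2 at -0.02, CCNE2 and MCM4 at -0.05, MCM5 at -0.03 and CDT1 at 0.11. Over all 31 members called in that average, 9 changed sign. This setting drops day 5 from the average and keeps its libraries in the fit. Further medians that moved are distances, S-phase minus mitotic median log2 change. With CCNA2 counted as mitotic they were 1.43 (UNC1999 day 1), 0.88 (UNC1999 day 5), 0.12 and 1.63 (between compounds at days 3 and 5), -0.34 (UNC1999 day 3 against day 1), -1.88 (MAK683 day 5 against day 1) and 1.39 (difference of courses). With means in place of medians they were 1.52, 1.23, 0.94 and 0.84 (UNC1999 days 1, 3, 5 and 6), 1.13 (MAK683 day 1), 0.39 and 0.69 (between compounds at day 1 and over days), -0.58 (UNC1999 day 5 against day 1) and 1.22 (difference of courses).

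Leaving out 1 library gave distances of 1.36 to 1.45, 1.24 to 1.31, 0.86 to 0.94 and 0.79 to 0.86 at UNC1999 days 1, 3, 5 and 6, 1.15 to 1.2 at MAK683 day 3 and -0.74 to -0.67 at MAK683 day 5. Between compounds they were 0.42 to 0.44 at day 1, 0.07 to 0.1 at day 3 and 0.66 to 0.69 over days. Against UNC1999 day 1 they were -0.42 to -0.22, -0.59 to -0.5 and -0.71 to -0.67 at days 3, 5 and 6, and the difference of courses was 1.32 to 1.39. The cause of these shifts was not tested. Over all genes, calls fell from 5841 to 2929 over days 1 and 3 only, from 1230 to 761 between compounds at day 1 without UNC1999 day 1 replicate 1, and from 5401 to 3292 for UNC1999 day 3 against day 1 without day 1 replicate 2. For day 6 against day 5 they ran from 17 without UNC1999 day 6 replicate 2 to 270 without a low-count filter, and were 223 with DESeq2.

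Replicate numbers did not pair the UNC1999 libraries (6 correlations of deviations, -0.042 to 0.024). With the number as a replicate block, the members called between compounds at days 1, 3 and 5 and over days were 24, 11, 33 and 30 in place of 24, 9, 29 and 31. For UNC1999 days 3, 5 and 6 against day 1 they were 23, 25 and 32 in place of 24, 25 and 33, and 0 at day 6 against day 5, where all genes called numbered 215 in place of 120. For MAK683 day 5 against day 1 the block gave 32 in place of 31, and for the difference of courses 33 in place of 31. No paired analysis was possible against untreated because the untreated libraries carry no numbers. The description of promoter motifs was not run.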
